A study of Mus musculus with 2 samples.

Results

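The peaks described here lie in the last 10% of the body of a single gene, called for RNA that came down with an antibody against ELAVL2 from newborn (P0) mouse ovary. A peak was taken when the authors' deposited gene table placed it over exactly 1 gene and its summit lay in the final 10% of that gene's length on the gene's own strand, on an autosome. There were 8546 such peaks in 2976 genes, out of 18333 autosomal peaks over exactly 1 gene and 28332 peaks in all. Both samples of the series, 1 ELAVL2 RIP and 1 input, came from lysate of frozen ovaries of day 0, with no genotype or treatment given. The labels give 100 ovaries as homogenised, 5 ug of antibody, and an input taken as 5% of the lysate before the pulldown. No control pulldown is among the samples, so RNA bound by ELAVL2 and RNA retained in another way cannot be told apart. After pooling of 3 lanes each, 172711531 tags had been aligned for the RIP and 210270620 for the input. Reducing copies at 1 position and strand to 1 left 13787676 RIP tags and 19479946 input tags. There is 1 sample per arm, so nothing here could be checked against a replicate, and intervals cover counting only.

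ELAVL proteins are RNA-binding proteins with 3 RNA recognition motifs that are known to bind U-rich and AU-rich stretches, mostly in the 3' untranslated regions of mRNAs, where they can stabilise a transcript or alter its translation. The family members ELAVL2, ELAVL3 and ELAVL4 are best known from neurons, and ELAVL2 is also made in the gonads, whereas ELAVL1 (HuR) is found in most cells. The final stretch of a gene body usually holds the last exon and with it the 3' untranslated region. Exon annotation was not used here, so positions are given along whole gene bodies, introns included, and the peaks carry no strand.

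Bases under these peaks were held by the sequence tables used here for few of them. For 6 peaks whose host is reported here, a promoter window of the table held 30 bases or more of the peak. The 30 covered bases nearest to the summit are printed, on mm10 coordinates like all positions here, to show bases within called peaks. The summit itself lies outside the printed stretch for Mllt6 (summit at 97685323) and for both Homer2 peaks (81609874 and 81610216). They come from RefSeq (GRCm38.p6, the assembly also called mm10) and read 5' to 3' on the host gene's strand as DNA, with runs of at least 3 T in capitals.
F630040K05Rik, chr17:45788483-45788512, plus strand: ctgcagggtactggagggctaatagaaggc
Homer2, chr7:81609876-81609905, minus strand: ctgcgtggcattcagtgtatgtgactctcc
Homer2, chr7:81610146-81610175, minus strand: gatctgtctgtctccagaccaattgtgccg
Mllt6, chr11:97685346-97685375, plus strand: gcatagcctgggtcttgtatcTTTgtataa
Nup160, chr2:90735534-90735563, plus strand: ggtgcctcttagggcttaagactacgctac
Spg20, chr3:55137089-55137118, plus strand: caacTTTTgcagaatacaggacagacaTTT
A run of TTT was present in 2 of these 6 stretches, those of Mllt6 and Spg20. On the gene strand, TTT was in the first 30 bases of 34.3% of the 32851 promoter windows of the table. T made up 52 of the 180 bases (28.9%), against 24.5% in those promoter bases. The stretch of Mllt6 held the most T, 12 of 30, and that of F630040K05Rik the fewest, 5 of 30. Mllt6 had a pileup of 43 RIP tags against an input level of 20.5 and a fold of 2.04, while F630040K05Rik had 16 tags against 1.63 and a fold of 6.47. These values are those of the summit, which for Mllt6 is not among the printed bases. These 6 stretches were set by where annotated genes start and stand for no larger set.

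Called peaks were concentrated at the 3' end of gene bodies, and most tightly close to the end itself. The last 10% of gene bodies, called the 3' end here, held 46.6% of the autosomal peaks over exactly 1 gene (exact binomial 95% interval 45.9 to 47.3), while the first 10%, called the 5' end, held 851 of them, 4.64% (4.34 to 4.96). The 3'-end share was 27.9% (1773 of 6359, in 812 genes) when only peaks with no other row in the gene table were taken, and 28.7% (1879 of 6536, in 1031 genes) among the 35.7% of these peaks with a fold of RIP over input of at least 4 (42.7% of all peaks). The stretch from 80% to 90% held 1917 peaks (10.5%), and the stretch from 10% to 20% held the fewest, 744 (4.06%). Within the last 10% the number of summits grew towards the end: 279 lay between 90% and 91% of the gene body and 2807 (32.8%) in the final 1%. Since the position chose these peaks, the shares describe the rule and are not tested. The median input level of the peaks was also higher in the last 10%, 11.3 against 4.25 in the middle of gene bodies. Per the labels, RNA was amplified as antisense RNA, and the part of amplification and coverage in this concentration was not tested.

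The median summit was 874 bp from the annotated 3' end (quartiles 314 and 2068 bp). Within 1000 bp of the end lay 53.9% of the peaks, and within 5000 bp 91.9%. These shares are partly set by the rule. In genes under 10 kb the last 10% lies wholly within 1000 bp of the end, and in genes of 10 to 30 kb wholly within 5000 bp. The distances did not run down to the end itself. Only 203 summits were less than 100 bp from it, 1113 were from 100 to under 200 bp away, 740 from 200 to under 300 bp and 264 from 900 to under 1000 bp. A peak reached over the annotated end in 36 cases. A further 30 peaks over 1 gene had their summit past its end, by a median of 56 bp and at most 481 bp, and are not counted here. Their median fold of 3.02 and pileup of 34.5 tags were close to the 2.84 and 34 of the peaks in the last 10%.

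**Figure D1:**
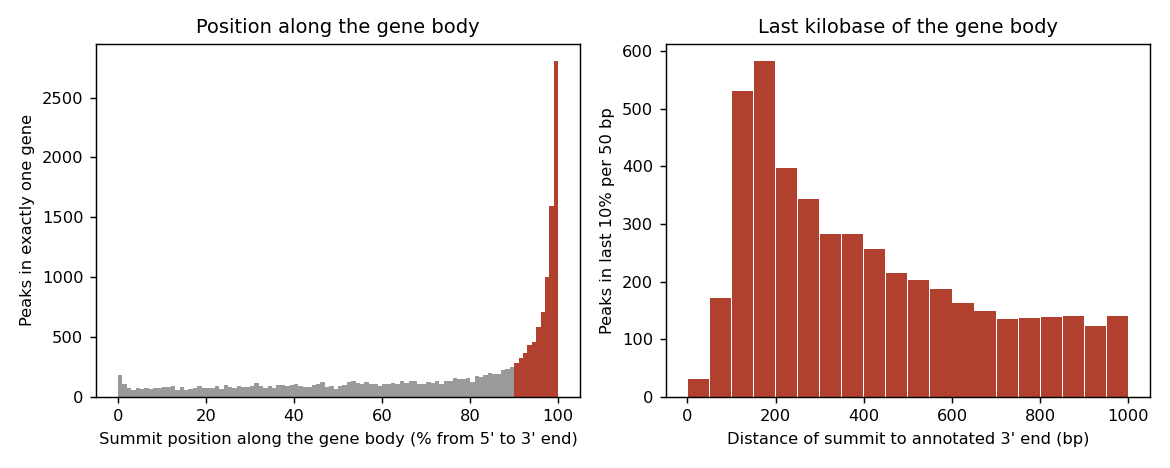
Number of autosomal peaks over exactly 1 gene per percent of the gene body (left, last 10% in red, the rest in grey) and number of 3'-end summits per 50 bp of distance to the annotated 3' end (right, last 1000 bp). The final percent holds 2807 summits, and the stretch from 100 to under 200 bp before the end holds 1113, against 203 in the last 100 bp.

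Most hosts could be set against a second annotation. Of the peaks, 8450 (98.9%) had a host matched by symbol to the reference table of GRCm38.p6, and 96.5% of these summits lay inside the reference body. A summit lay past the reference end in 297 cases (3.51%). The deposited body was more than 2 times the reference length for 129 peaks. Protein-coding genes hosted 96.8% of the 3'-end peaks, against 89.9% of 5'-end peaks and 91.6% of peaks in the middle of gene bodies. Long noncoding RNA genes hosted 1.69% of 3'-end peaks, against 5.88% and 3.40%. By chromosome the share of peaks in the last 10% was lowest on chromosome 12, 39.1% (35.6 to 42.6), and highest on chromosome 15, 54.2% (50.3 to 58.1).

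The 3' concentration was seen in genes of every length class, although 10% spans very different distances. In genes under 10 kb 34.8% of peaks were in the last 10% (32.6 to 37.1), in genes of 10 to 30 kb 48.9%, of 30 to 100 kb 51%, of 100 to 300 kb 45.6% and over 300 kb 37.9% (35.7 to 40.2). The median distance to the end grew over these classes: 231, 527, 1064, 1545 and 2552 bp. In the longest genes 66.7% of 3'-end peaks were still within 5000 bp of the end. Counted over all peaks in a single gene, the last 5000 bp held 25.3% in genes over 300 kb, where 5000 bp is a far smaller part of the body than 10%. Before the last 10%, 1856 peaks (20.9% of those in the middle of gene bodies) were also within 5000 bp of the 3' end.

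**Figure D2:**
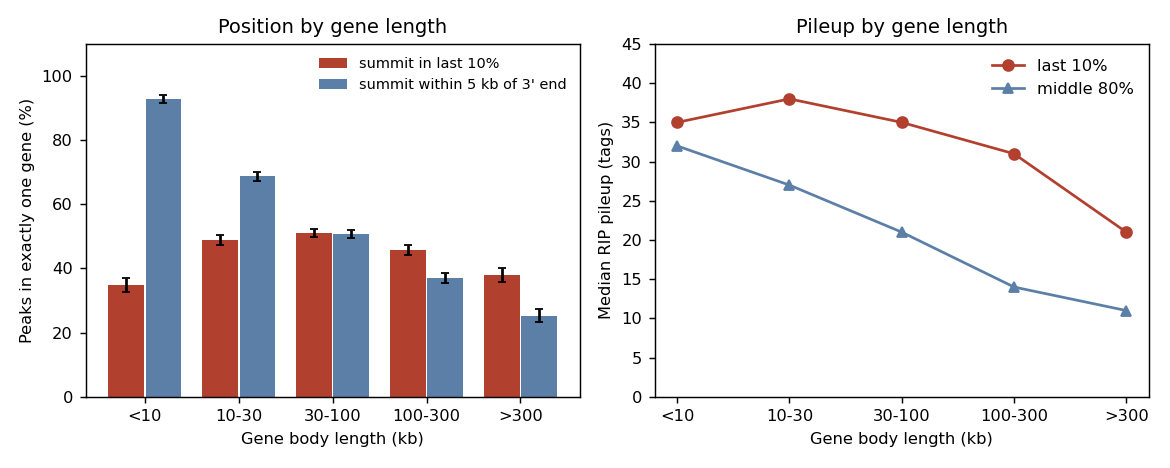
Share of autosomal peaks over exactly 1 gene with the summit in the last 10% (red) or within 5 kb of the 3' end (blue), by gene length with exact binomial 95% intervals (left), and median RIP pileup in tags of 3'-end (red) and middle (blue) peaks (right). The 3'-end share runs between 34.8% and 51%, and the median pileup is 35 tags for 3'-end peaks against 32 for middle peaks in genes under 10 kb and 21 against 11 in genes over 300 kb.

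Peaks at the 3' end had more RIP tags, a higher input level and, taken over all genes, a lower fold than peaks elsewhere in genes. In genes under 10 kb the fold was not lower. The pileup is the number of overlapping RIP tags at the summit, the input level is the scaled local background of the peak caller, and the fold is their ratio with 1 added to both. Pileup and fold are the authors' values, and the input level was computed from them. The median pileup was 34 tags in the last 10% (quartiles 23 and 44), against 20 in the middle of gene bodies (11 and 34) and 19 in the first 10% (10 and 31). The median input level was 11.3 in the last 10%, against 4.25 in the middle and 3.54 in the first 10%. The median fold was 2.84 in the last 10% (2.28 and 3.80), against 3.81 in the middle (2.75 and 5.27) and 4.10 in the first 10% (2.86 and 5.34). A fold of at least 4 was reached by 1879 of the 8546 3'-end peaks (22.0%), against 47.3% of middle and 51.7% of 5'-end peaks. Over all 28332 peaks the share was 42.7%, and over the 18333 in exactly 1 gene 35.7%. The median -log10 q was similar, 4.01 in the last 10%, 4.17 in the middle and 4.12 in the first 10%. By gene length, the median fold in genes under 10 kb was 2.95 in the last 10% and 2.95 in the middle, with pileups of 35 and 32 tags. In genes of 10 to 30 kb it was 2.65 in the last 10% against 3.20 in the middle, and in genes over 300 kb 3.87 against 5.11.

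At a like input level the folds of the positions lay close together. The deposited -log10 p follows from pileup and input level, so the q cutoff of 0.05 sets a lowest fold at each input level. That lowest fold is smaller at high than at low input levels, and keeping 1 tag per position and strand bounds the pileup from above. How far these bounds set the likeness of the folds was not tested. When the 18333 peaks were divided into 5 groups by input level, the median fold in the lowest was 5.85 for 3'-end peaks, 5.80 for middle and 5.56 for 5'-end peaks. In the middle group of input it was 3.30 for 3'-end peaks, 3.26 for middle and 3.26 for 5'-end peaks, and in the highest 2.11, 2.07 and 2.04. The share of peaks in the last 10% was 18.6% in the lowest group (17.3 to 19.9), then 36.8%, 50.9%, 60.5% and 67.1% in the highest (65.5 to 68.6). An input level of at most 0.708, the scaled value of 1 input tag, was found for 390 3'-end peaks (4.56%), against 21.2% of middle and 23.4% of 5'-end peaks. Gene length moved with these groups: the median host of a 3'-end peak was 76.1 kb in the lowest group and 39.6 kb in the highest. The part of input level and gene length in these shares was not tested. Fewer cells with a transcript and less of it per cell cannot be told apart in whole ovary.

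**Figure D3:**
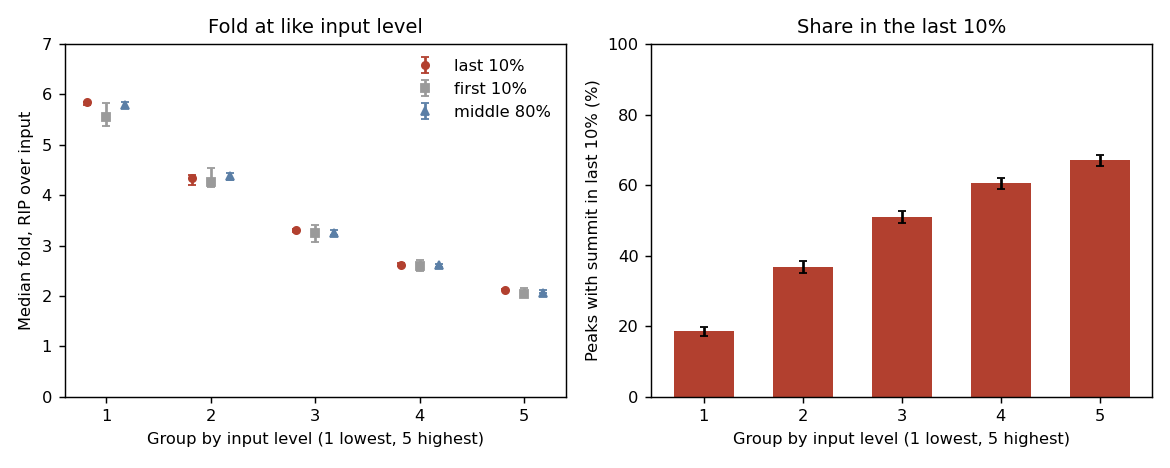
Median fold of RIP over input for 3'-end (red circles), 5'-end (grey squares) and middle peaks (blue triangles) in 5 groups of input level, with 95% order-statistic intervals (left), and share of peaks with the summit in the last 10% with exact binomial 95% intervals (right). The 3 positions lie close together in each group, at 5.85 for 3'-end, 5.56 for 5'-end and 5.80 for middle peaks in the lowest, while the 3'-end share goes from 18.6% to 67.1%.

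Among the 3'-end peaks themselves, signal changed with distance to the end. The 1721 peaks within 250 bp of the end had a median pileup of 37 tags against an input level of 12.7, and a fold of 2.82. From over 250 to 500 bp the fold was lowest, 2.57, with a pileup of 38 and an input level of 14.2. It was 3.04 from over 2000 to 5000 bp and 4.19 for the 266 peaks more than 10000 bp from the end, where the pileup was 17 tags and the input level 2.83. The 266 distant peaks came from 144 genes with a median host length of 320 kb. In the lowest group of input level the peaks within 250 bp had a median fold of 6.44 (95% interval 5.86 to 6.79), against those from over 250 to 1000 bp, 5.84 (5.38 to 6.02), and these intervals overlap. In the highest group these medians were 2.11 and 2.11. Peaks more than 5000 bp from the end had a median fold of 5.80 (5.27 to 5.95) in the lowest group, 3.23 (3.03 to 3.34) in the middle group and 2.14 (2.06 to 2.24) in the highest. Those within 250 bp had 3.39 (3.30 to 3.48) in the middle group. The higher fold of distant peaks was thus not seen in these groups of like input level.

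Genes with peaks on both sides of the boundary showed the same pattern within a gene. Of the 2976 genes, 1593 (53.5%) also had a peak earlier in the body, and the other 1383 had peaks over 1 gene only in the last 10%. The highest pileup was in the last 10% in 1308 of the 1593 (82.1%, 80.1 to 84.0), with a median of 42 tags in the last 10% against 27 earlier. The highest fold was in the last 10% in only 457 (28.7%, 26.5 to 30.98), with medians of 3.28 in the last 10% and 4.55 earlier. The number of peaks per gene plays into such maxima. In the 207 genes with exactly 1 peak on each side, the pileup was higher in the last 10% in 163 (78.7%), the input level in 154 (74.4%) and the fold in 72 (34.8%).

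Many genes carried several peaks at the 3' end. A single 3'-end peak was found in 1221 of the 2976 genes (41.0%), 2 in 585 and 5 or more in 548 (18.4%). The 548 genes held 4042 of the 8546 peaks (47.3%), and 92 genes had 10 or more. Neighbouring 3'-end summits of a gene were a median of 302 bp apart, against 692 bp for middle peaks, and 28.4% were within 200 bp of each other, against 18.02%. The last 10% is a far narrower stretch than the middle, which by itself limits how far apart its summits can lie. The part of this limit in the difference was not tested. In the 92 genes with 10 or more peaks the summits spanned a median of 4966 bp. Most peaks were short, with a median length of 88 bp, and 68 were 500 bp or longer. Among the longest were those in Foxn3 (1430 bp), Ccni (1124 bp), Zkscan8 (1069 bp) and Rfpl4 (1000 bp).

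Braf, which encodes a kinase of the MAPK pathway, had the most 3'-end peaks, 24 of its 26, spread from 0.614 to 10.6 kb before the end. Their pileups ran from 17 to 46 tags over input levels of 4.62 to 18.4, and their folds from 2.06 to 4.95. Celf2, which encodes a splicing and translation regulator, had 22 of 45. Of these 22, 12 were within 5 kb of the end and 6 were more than 10 kb from it, up to 76.0 kb in a body of 970 kb. Its largest fold, 11.7, was at one of the distant peaks, with 15 tags at an input level of 0.369, the genome-wide background.

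Cnot6l, a catalytic subunit of the CCR4-NOT deadenylase, had 21 of 31 peaks there, all within 6.84 kb of the end, with pileups of 20 to 57 and folds of 1.93 to 4.22. Deptor, an inhibitor of mTOR, had 20 of 27 within 6.71 kb (pileups 22 to 64, folds 2.11 to 4.36). Bbx, an HMG-box gene, and Tmem56, a transmembrane protein gene, had 19 each. The Bbx peaks had the higher pileups, 31 to 69 tags against 13 to 41 in Tmem56, and the lower folds, 1.83 to 3.96 against 3.02 to 6.40. Pcdh15, a cadherin gene best known from the inner ear, had 18, of which 5 were more than 10 kb from the end.

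All 18 peaks of Pde1c, a calcium-dependent phosphodiesterase gene, were in its last 10%, but between 31.1 and 37.0 kb before the annotated end, and none lay within 5 kb. Measured against the reference body they were also 31.1 to 37.0 kb from the end. Their folds were high throughout, 4.03 to 7.14, at pileups of 12 to 29. Cpne3, a copine gene, and Dcun1d3, a gene of the neddylation pathway, had 17 each, all within 3.95 and 4.28 kb of the end. The number of separate peaks in a gene also depends on how the peak caller divided an enriched stretch.

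**Figure D4:**
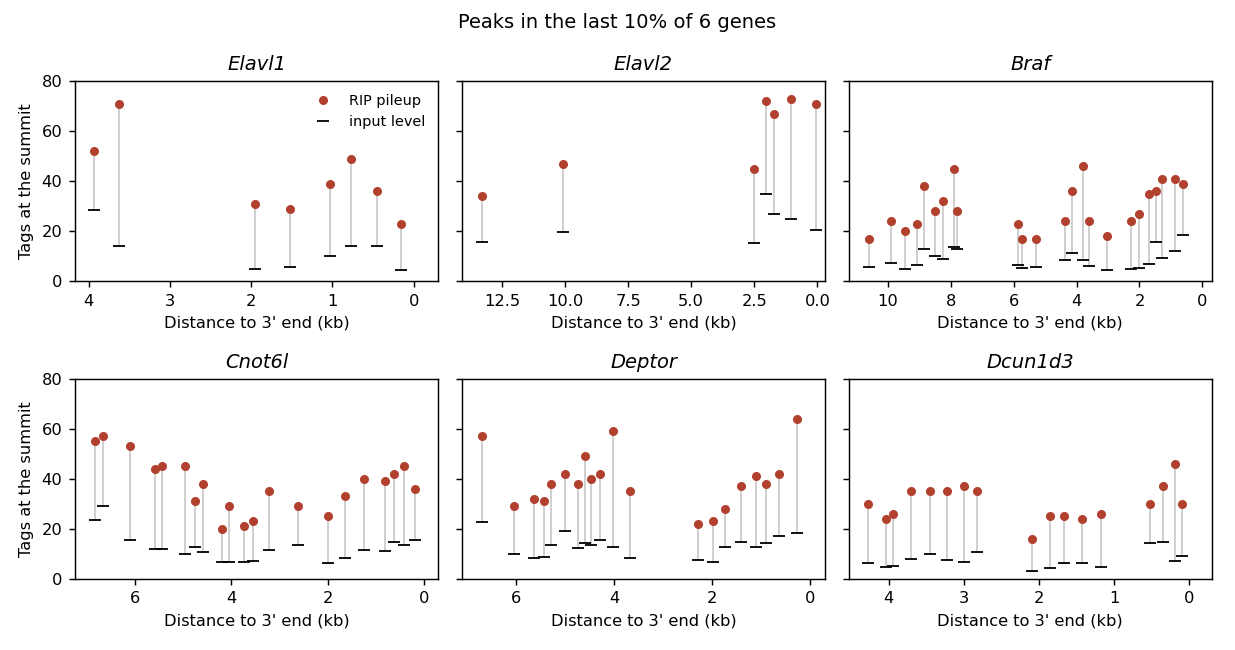
RIP pileup (red points) and input level (black bars) in tags at each 3'-end summit against distance to the annotated 3' end in kb, for Elavl1, Elavl2, Braf, Cnot6l, Deptor and Dcun1d3, with a grey line joining the 2 values of a summit. Elavl2 has 5 of 7 summits within 5 kb of its end, and Braf has 24 summits out to 10.6 kb.

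The ELAVL genes themselves carried 3' peaks. Elavl1 had 8 of its 14 single-gene peaks in the last 10%, with pileups of 23 to 71 against input levels of 4.60 to 28.3 and folds of 1.81 to 5.37. Elavl2 had 7 of 13, with pileups of 34 to 73 against 15.3 to 34.7 and folds of 2.05 to 3.34, below the largest fold it reached earlier in the gene, 6.62. Its 862 bp peak over the annotated end (chromosome 4, 91250749 to 91251610) had 71 tags against an input level of 20.5. All 5 peaks of Elavl4 were in the last 10%, with 5 to 12 tags against 0.369 to 1.42 and folds of 4.38 to 8.49, and the only peak of Elavl3 had 17 tags against 1.56 and a fold of 7.02. Each 3'-end peak of Elavl1 and Elavl2 thus had more tags than any of Elavl3 and Elavl4, while the folds of Elavl1 and Elavl4 overlapped.

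Ranked by -log10 q, the strongest 3'-end peak outside clone-type gene names was that of Lsm12, which encodes an Lsm-domain protein (chromosome 11, 102162516 to 102162738). It had 55 tags against an input level of 5.56, a -log10 q of 27.7 at a fold of 8.54, and lay 110 bp before the end. Tfap4, a helix-loop-helix transcription factor gene, followed with 80 tags against 13.4 at 160 bp from the end (chromosome 16, 4544680 to 4545137, fold 5.61, -log10 q 27.3). Rbfox2, a splicing regulator gene, had 69 tags against 10.6 at 3430 bp (chromosome 15, 77082363 to 77083141, fold 6.03, -log10 q 25.4).

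The phosphatase gene Ppp4c (87 tags against 19.1, fold 4.38), the deubiquitinase gene Usp32 (65 against 10.6, fold 5.68) and the endosomal GTPase gene Rab21 (79 against 17.0, fold 4.45) had summits 104, 103 and 98 bp before their ends. Elavl1 was also among the first 10, with 71 tags against 14.2, at 3624 bp from the end. The other 3 had low input levels: Tc2n, a C2-domain gene, with 29 tags against 1.59, Speer4f2 with 27 against 1.13 and Duxf3 with 19 against 0.369. Speer4f2 and Duxf3 belong to multi-copy families, so their reads may come from other copies.

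The largest folds at a pileup of at least 20 were 13.5 in Adtrp, a lipid hydrolase gene (chromosome 13, 41764608 to 41764785, 22 tags against 0.708), 13.1 in Speer4f2 and 12.6 in the homeobox gene Hoxa13 (chromosome 6, 52257843 to 52257953, 20 tags against 0.672). Tc2n followed with 11.6 and Unc5d, a netrin receptor gene, with 11.2 (26 tags against 1.42, 226 bp from the end of a body of 573 kb). Bloc1s6os reached 11.1. Its symbol names it as opposite in strand to another gene. By the rule its peak lay over no other gene of the deposited gene table, but the peaks carry no strand. Adgre4, an adhesion receptor gene, and Mctp2 had 9.94 each, and Cdnf, a neurotrophic factor gene, and Timd4, a phosphatidylserine receptor gene, 9.11 each. All 10 had input levels of at most 1.59.

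In all 34 3'-end peaks had a fold of at least 10, and 15 of them were in genes with clone-type names. Of these, 13 lay in 13 separate Gm genes on chromosome 14 between 41287820 and 44588309, with pileups of 13 to 23 tags and folds of 10.2 to 14.04. The median fold of the 485 3'-end peaks in clone-type or unnamed genes was 4.19, against 2.80 in the others. How reads from near-identical copies were placed was not tested.

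The highest pileups stood over high input levels, with modest folds. Rsl24d1, a ribosome biogenesis gene, reached 97 tags against an input level of 39.6 (fold 2.41), and Ptma, the prothymosin alpha gene, 96 against 39.6 (2.39). Actb, the cytoplasmic actin gene, had 96 tags against 61.6 and a fold of 1.55, and Uchl1, a deubiquitinase gene of neurons and germ cells, 95 against 48.1 (1.95). Tram1, Fkbp1a, Pfn1, Arf3 and Sf1 had 89 to 92 tags with folds of 1.78 to 2.46. Because 1 tag was kept per position and strand and tags were extended to 50 bp, pileups near these values are close to the most the method can count. At such input levels the fold is thereby bounded too. Much larger folds could not have been reached by these peaks, so their folds do not measure how weak the enrichment was.

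Gene groups were counted by how many members held a 3'-end peak, beside 13.6% of all 20665 autosomal protein-coding genes of the reference (6.21% of its 47042 autosomal genes of any kind) and 60.3% of the 4932 genes with any single-gene peak. Of 49 mRNA decay and P-body genes 25 held one (51%), and 25 of the 33 with a single-gene peak did. Of 15 genes of AU-rich element binding proteins and relatives 10 did (66.7%), 10 of the 12 with a single-gene peak. Of 58 translational RNA-binding protein genes 30 did (51.7%), 30 of the 36 with a single-gene peak, and of 26 PI3K and mTOR genes 14 (53.8%). In the last of these groups all 14 genes with a single-gene peak had one in the last 10%. The lists were chosen with earlier results of these data known, and how strongly genes lacking a peak were expressed is not analysed here, so the shares are descriptions.

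Among the decay genes the most significant 3'-end peaks were in Lsm7, of the Lsm ring (58 tags against 14.9, fold 3.72, 52 bp from the end), Tnrc6c, a microRNA effector gene (53 against 13.4, fold 3.74), and Cnot6l (45 against 9.91, fold 4.22). The median fold over the 89 3'-end peaks of the list was 2.71 with a median pileup of 39 tags, close to the 2.84 and 34 of all 3'-end peaks. After Elavl1 the AU-rich element list was led by Celf2 and Celf1. Celf1 had 15 of its 17 peaks there and a best -log10 q of 13.4 (39 tags against 6.28, fold 5.50).

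Among the translational regulators, Cpeb3, a cytoplasmic polyadenylation element binding protein gene, had 13 of 16 peaks in the last 10%, the best with 57 tags against 10.2 and a fold of 5.18. Lin28b, which blocks let-7 processing, had 6 of 11 (best 32 tags against 4.25, fold 6.29) and Cpeb4 3 of 7 (25 against 2.87, fold 6.72). In the PI3K and mTOR group Rictor, the defining subunit of mTOR complex 2, had 46 tags against 10.1 (fold 4.24). The kinase gene Pdpk1 had 10 peaks in the last 10%, the most significant with 36 tags against 7.15 and a fold of 4.54. The median distance to the end in this group was 3157 bp, against 874 bp over all 3'-end peaks.

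Of 26 oocyte genes 9 held a 3'-end peak (34.6%, exact binomial interval 17.2 to 55.7), beside 13.6% of all protein-coding genes. Of the 11 oocyte genes with a single-gene peak 9 had one in the last 10%, beside 60.3% of all genes with a single-gene peak. The oocyte genes were led by the transcription factor genes Tbpl2 (36 tags against 8.49, fold 3.90) and Taf4b (44 against 12.7, fold 3.28) and by the germ cell RNA-binding protein gene Dazl (78 against 33.3, fold 2.31). Of 34 meiosis genes 6 held a 3'-end peak (17.6%, 6.76 to 34.5), near the 13.6% of all protein-coding genes. Of the 13 with a single-gene peak 6 had one in the last 10%, beside the same 60.3%. Only 7 of the 37 single-gene peaks of the list (18.9%) were in the last 10%, against 46.6% of all. Tex12, of the synaptonemal complex, had 56 tags against 12.7 and a fold of 4.15. Hfm1, a crossover helicase gene, had 12 tags against 0.708 and a fold of 7.61, and Prdm9, which places recombination hotspots, 40 against 14.2 and a fold of 2.71.

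Chromatin modifiers (18 of 49, 36.7%) and ubiquitin ligases and deubiquitinases (14 of 42, 33.3%) stood above 13.6%. Of their genes with a single-gene peak, 18 of 27 and 14 of 20 had one in the last 10%, beside 60.3% overall. Among their most significant peaks were those in the demethylase gene Kdm6b (44 tags against 9.48, fold 4.29), Uhrf1, of DNA methylation maintenance (65 against 22.6, fold 2.79), and the ubiquitin ligase genes Fbxw11 (61 against 21.1, fold 2.81), Cbl (40 against 10.6, fold 3.53) and Mdm2 (51 against 16.3, fold 3.01).

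Translation factors (7 of 43, 16.3%) were near the 13.6% of all protein-coding genes. So was a mixed list of early response, cytokine and other AU-rich mRNAs (5 of 29, 17.2%), called the early response list here. Of their genes with a single-gene peak, 7 of 8 translation factors and 5 of 7 genes of the early response list had one in the last 10%, beside 60.3% overall. Eif4g2 had 61 tags against 19.1 and a fold of 3.08, and Eif4e and Eif5a had best folds by significance of 2.35 and 1.94. Sirt1, a deacetylase gene (41 against 13.4, fold 2.91), Cdkn1b, the p27 cell cycle inhibitor gene (57 against 25.5, fold 2.19), and Nova1, a neuronal splicing factor gene (18 against 4.25, fold 3.62), led the early response list. None of those named is a cytokine gene.

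In the lists named for somatic cell types the counts were small, and the intervals of all 6 lists include 13.6%. Whether their members were made only in those cells was not examined. Of 26 granulosa genes 1 held a 3'-end peak (3.85%, exact binomial interval 0.0973 to 19.6), Cdkn1b, which the early response list also holds, and of 16 stromal genes 1 (6.25%, 0.158 to 30.2), Ptch1 (37 tags against 19.1, fold 1.89). Of 11 epithelial genes 2 did (18.2%, 2.28 to 51.8), Cdh1 (22 against 4.71, fold 4.03) and Epcam (47 against 26.2, fold 1.77). None of the 10 endothelial, 9 erythroid and 10 immune genes did, which allows up to 30.8%, 33.6% and 30.8% at these list sizes by the exact binomial interval. Whether these transcripts were present in the input at a depth that could give a peak was not analysed here.

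**Figure D5:**
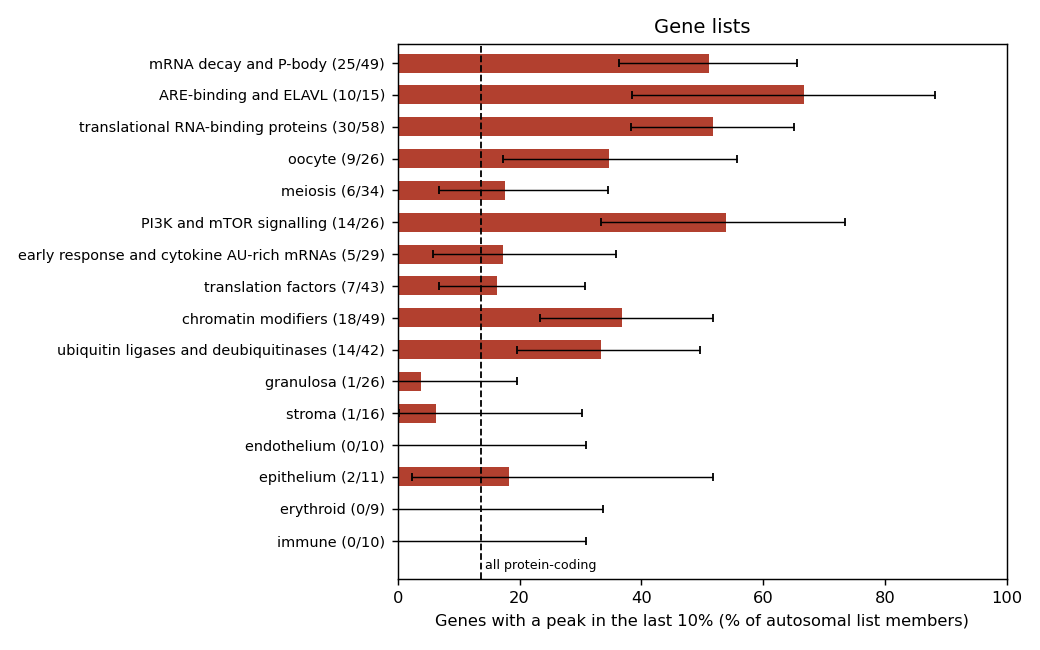
Percentage of the autosomal members of each gene list with a 3'-end peak (bars, with exact binomial 95% intervals and the counts beside the names), with 13.6% of all autosomal protein-coding genes as a dashed line. The 4 lists of RNA regulators and PI3K and mTOR genes stand between 51% and 66.7%, and the endothelial, erythroid and immune lists at 0.

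The peaks nearest to the boundary of the rule are given as a description. The 3 just inside 10% were in Bclaf1 (35 tags against 15.6, fold 2.17, 3213 bp from the end), Cd9 (49 against 10.6, fold 4.30, 3450 bp) and Rpl39l (56 against 26.9, fold 2.04, 468 bp). The 3 just outside were in Tmem80 (24 against 6.09, fold 3.53, 942 bp), Clybl (9 against 0.602, fold 6.24, 22064 bp) and Nlrp4b (16 against 3.54, fold 3.75, 4240 bp).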

How the data were processed

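Per the submitters' processing notes, the tools were MACS2 2.1.0.20140616, TopHat2 2.0.8b, FastQC 0.11.2 and CASAVA 1.8.2, and the build was mm10. Per the labels, RNA was amplified as antisense RNA and libraries came from a stranded kit, with 36-base single-end reads. Per the file headers, the authors pooled 3 lanes per sample and called peaks at a q of 0.05, keeping 1 tag per position, extending tags to 50 bp and scaling the larger library to the smaller (factor 0.708), with local background over 1000 and 10000 bp. The caller was made for DNA and takes no account of splicing or strand. The deposited signal is the RIP pileup at the summit, the deposited fold is a ratio with a pseudocount of 1, and -log10 p and -log10 q were deposited per peak.

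The authors' deposited gene table held 85730 rows, of which 42176 repeats were dropped. Its making is not stated in the sources used here. Peaks were joined by position, and input level was computed from pileup and fold. A Poisson -log10 p from it was within 5.62e-05 of the deposited value for each peak. Placement was tested on simulated summits. Medians and shares have order-statistic and Clopper-Pearson 95% intervals. Peaks are not replicates, so no p-value is given. Symbols of 80.4% of 11969 genes matched the reference. Members and lists were chosen with earlier results of these data known.

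Genes named are the Elavl genes, the first 10 by fold at a pileup of at least 20, by -log10 q, by pileup and by number of peaks, the 5 longest peaks, 3 on each side of the boundary and 3 per list by -log10 q, leaving out clone-type names. Some genes that this rule takes are not reported here. Alternatives were thresholds on q, pileup and fold, merging, stricter pairing, reference bodies, peak middles, sex chromosomes and a fold without pseudocount. T content around summits was planned and not run, since no genome sequence was used here. Scripts ran in Python 3.11.15 with scipy 1.17.1, pandas 2.3.3, matplotlib 3.10.9 and numpy 2.4.6.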

Additional observations from a re-analysis of the deposited data

How the results depend on the processing

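Of 49 recomputed values, 26 stayed within the interval of the reported value (counts within 1.5 times) and 23 did not. The share of single-gene peaks in the last 10%, 46.6%, was 44.8% at a -log10 q of at least 5, 57.8% at a pileup of at least 20, 28.7% at a fold of at least 4, 43.9% with peaks within 100 bp merged and 27.9% with only peaks that have no other gene row. The number of genes, 2976, was 1578 at the q threshold, 1031 at the fold threshold and 812 with no other gene row. The median fold, 2.84, was 3.75, 2.60 and 4.99 at the thresholds on q, pileup and fold and 3.01 without the pseudocount. The median pileup, 34 tags, was 38 at the pileup and 17 at the fold threshold. The median distance to the end, 874 bp, was 837, 808 and 1126 bp at the thresholds on q, pileup and fold, 510 bp with no other gene row and 916 bp with reference bodies. The share of genes with the highest pileup in the last 10%, 82.1%, was 79.9% and 73.7% at the pileup and fold thresholds, 77.5% with no other gene row and 84.1% with reference bodies. Thresholds remove low or high values by construction, and the cause of the other shifts was not tested. The median fold was lower and the median pileup higher in the last 10% than in the middle under each of these 8 settings. For reference bodies the deposited strand was used. No paired analysis was possible because each group has 1 sample. Local background stands in for input at the summit, and pileups near 97 are close to the ceiling of the counting.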
